A study of Mus musculus with 2 samples.

Results

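Cytosines of CpG dinucleotides that were partly methylated in wt mouse embryonic fibroblasts (MEFs) and unmethylated in βerko MEFs were collected from the positions covered by reduced representation bisulfite sequencing (RRBS) in both cell types. A position was taken when its methylation was from 20 to 80 % in wt and below 20 % in βerko MEFs, which held for 39959 of 826937 positions, or 4.83 % (95 % Wilson interval 4.79 to 4.88 %). They belonged to 37441 CpGs, since some CpGs were covered on both strands. Both cell types were embryonic fibroblasts of the strain C57BL/6. The wt line was labelled wildtype and the βerko line ESR2 -/-, which means that both alleles of the gene for oestrogen receptor β are disrupted. Methylation cannot check the loss of the receptor, and the number of embryos behind each line was not given in the sources used here. The DNA of 3 batches was pooled for each of the 2 libraries, so there were no replicates, and every value below is a comparison of these 2 libraries. Intervals cover the counting of positions only. They do not cover the spread between cultures or animals. Since the positions were chosen by their values in both libraries, the direction of the change and the limits of its size follow from the choice, and both are given as a description without a test.

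In mammals, DNA methylation is found mostly at CpGs, and most CpGs outside CpG islands are methylated. CpG islands are stretches rich in CpGs that often contain promoters and are usually free of methylation, and many of those at genes for developmental regulators are bound by Polycomb complexes. A value between 20 and 80 % in a population of cells can come from a mixture of cells or alleles with different states, as at imprinted genes, where the alleles of mother and father differ. Methylation is set by DNA methyltransferases and removed by dilution during replication or by oxidation through TET enzymes followed by base excision by TDG. RRBS reads fragments between MspI sites and does not separate 5-methylcytosine from 5-hydroxymethylcytosine.

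Sequences of 3 runs are printed because they show how densely these positions lay and how they alternated with other positions. A run was a group of at least 5 such positions with gaps of at most 100 bp from one to the next. The first 2 sequences are 2 of the 3 runs with the most positions among those that were at most 300 bases long and outside untranslated regions. The last is from Esrrg and has neighbours on both sides that went from more than 80 % in wt to less than 20 % in βerko MEFs, which are called hypomethylated DMPs (differentially methylated positions) below. None of the 10 largest runs had such neighbours on both sides, so the largest shorter run that did was taken. All are from the plus strand of the build NCBIM37 (mm9), 5′ to 3′, and the CpGs in capitals are those with a partly-to-unmethylated position on at least 1 strand.
Shh, coding exon and start of 9530036O11Rik, chr5:28784648-28784882: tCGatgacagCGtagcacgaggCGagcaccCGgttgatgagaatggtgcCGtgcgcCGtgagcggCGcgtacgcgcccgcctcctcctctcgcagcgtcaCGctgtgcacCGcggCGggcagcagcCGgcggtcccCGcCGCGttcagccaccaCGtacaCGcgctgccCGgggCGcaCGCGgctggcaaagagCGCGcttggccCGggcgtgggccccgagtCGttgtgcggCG
Fbrsl1, exon, chr5:110792207-110792482: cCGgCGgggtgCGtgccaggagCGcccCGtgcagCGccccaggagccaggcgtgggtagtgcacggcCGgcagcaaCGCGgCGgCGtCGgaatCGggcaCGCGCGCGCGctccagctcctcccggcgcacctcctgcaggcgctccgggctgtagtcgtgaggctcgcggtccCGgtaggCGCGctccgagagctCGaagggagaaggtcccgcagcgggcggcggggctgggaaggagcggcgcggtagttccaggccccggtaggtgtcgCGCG
Esrrg, intron, chr1:189475800-189475894: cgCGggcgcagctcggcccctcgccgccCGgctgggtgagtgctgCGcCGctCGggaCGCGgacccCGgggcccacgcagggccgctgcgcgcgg
The same bases of Esrrg, with the CpGs in capitals that held a hypomethylated DMP on at least 1 strand: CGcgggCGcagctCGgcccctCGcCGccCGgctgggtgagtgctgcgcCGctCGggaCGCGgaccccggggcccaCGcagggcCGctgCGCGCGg

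In Shh, which encodes the secreted morphogen sonic hedgehog, the 31 positions had means of 44.5 % in wt and 6.51 % in βerko MEFs. They lay in the last coding exon of Shh, where the long non-coding RNA 9530036O11Rik starts on the opposite strand, so that this run counts as a promoter of the latter. In Fbrsl1, a gene related to fibrosin, the means of the 28 positions were 50.1 and 1.00 %, and all 4 other positions inside the run were hypomethylated DMPs. In Esrrg, which encodes an orphan nuclear receptor related to the oestrogen receptors, 10 positions at 8 CpGs had means of 56.5 % in wt and 1.96 % in βerko MEFs. The pair of sequences from Esrrg shows that both kinds of position shared CpGs, with 15 CpGs in capitals in the second line.

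Positions that became unmethylated were 28.0 % of the 142556 positions that were partly methylated in wt MEFs. Another 60528 positions (42.5 %) stayed between 20 and 80 %, and 42069 (29.5 %) rose above 80 %. The share that became unmethylated fell with the level in wt MEFs, from 56.5 % of the positions at 20 to 30 % to 8.91 % of those at 70 to 80 %. In the opposite direction, 17876 positions were unmethylated in wt and partly methylated in βerko MEFs, which was 14.3 % of the 124696 positions partly methylated in βerko MEFs. Partly methylated positions of each cell type were thus unmethylated in the other more often for wt than for βerko MEFs. The part that read depth had in this difference was not tested, because the depth of these positions was not in the table used.

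Partly-to-unmethylated positions had a median of 36.2 % in wt MEFs, and in βerko MEFs the median was 5.88 %. The median drop was 29.8 percentage points (95 % interval of the median 29.5 to 30.0), with quartiles of 20.7 and 43.8 points and a range from 0.33 to 80 points. In βerko MEFs, 8795 positions (22.01 %) were read as 0 % methylated. A drop of at least 20 points was found at 31439 positions (78.7 %), while 10.4 % of all covered positions had such a drop and 6.81 % had a rise of this size. A drop of at least 50 points was found at 17.9 % of the positions, and 997 (2.50 %) dropped by at least 70 points. Low levels in wt MEFs were common, since 56.6 % of the positions were below 40 % and 15.5 % were at 60 % or more.

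The thresholds cut through a continuous range of values. Between 20 and 22 % in wt MEFs lay 3921 of the positions, with a median drop of 17.1 points, and just outside, between 18 and 20 %, lay 2751 positions with a median drop of 14.7 points. Exactly 20 % in wt MEFs was read at 1620 positions. At the limit in βerko MEFs, 1961 positions lay between 18 and 20 % and 2679 between 20 and 22 %, with median drops of 23.9 and 22.9 points. At the upper limit in wt MEFs, 680 positions lay between 78 and 80 % and 342 between 80 and 82 %, and their median drops were 70.57 and 70.96 points.

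**Figure D1:**
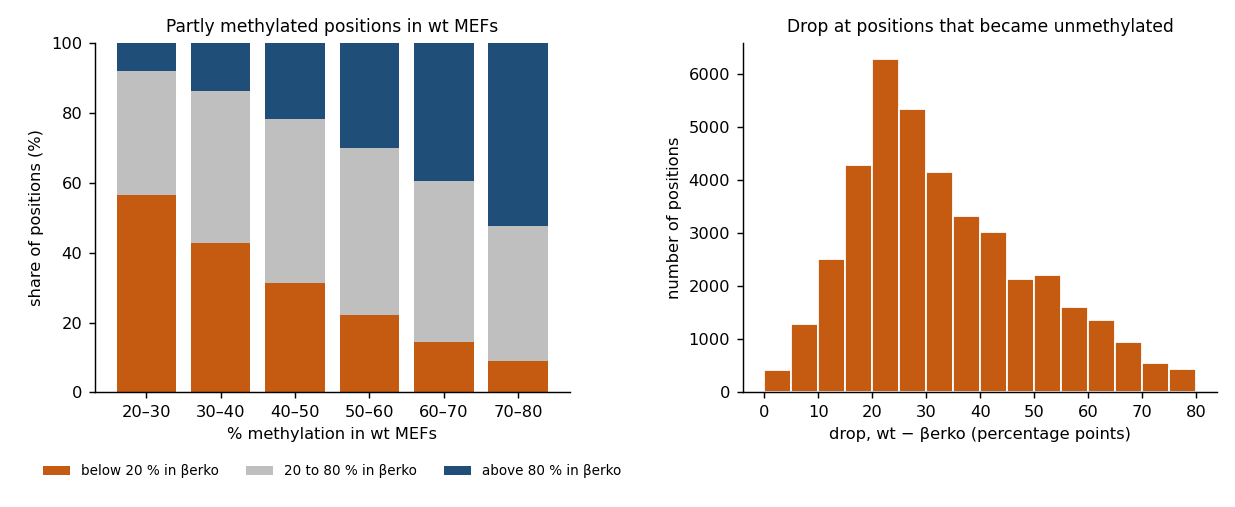
Left, the share (%) of positions partly methylated in wt MEFs that were below 20 %, from 20 to 80 % or above 80 % in βerko MEFs, by their level in wt MEFs. Right, the number of partly-to-unmethylated positions by the drop in percentage points. The share below 20 % falls from 56.5 % in the lowest bin to 8.91 % in the highest, and the drops have a median of 29.8 points.

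The values of the opposite strand and of neighbouring CpGs were not used in the choice of a position. Many of them were themselves chosen by the same rule, however, so they are not independent. The cytosine on the other strand of the same CpG was covered for 8788 of the positions. It was below 20 % in βerko MEFs for 81.5 % of them, its level was higher in wt than in βerko MEFs for 88.5 %, and its median drop was 24.2 points. For 57.3 % the other strand was itself partly methylated in wt and unmethylated in βerko MEFs, and for 21.4 % it was unmethylated in both. When a position was partly methylated in both cell types, the other strand was below 20 % in βerko MEFs for 18.8 % and had a median drop of 3.27 points.

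Other CpGs within 100 bp were covered for 38019 positions (95.1 %). The mean of these neighbours had a median over positions of 31.6 % in wt and 11.97 % in βerko MEFs, and the median drop was 15.2 points. The neighbours were higher in wt than in βerko MEFs at 87.8 % of the positions and by at least 20 points at 39.9 %. Neighbours of positions that were partly methylated in both cell types had a median drop of 3.25 points, and those of positions that went from unmethylated to partly methylated a median drop of -2.68 points, which is a rise. The neighbours of hypomethylated DMPs had a larger drop, with a median of 47.9 points. Neighbours around all covered positions had a median drop of 0.12 points.

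Runs were formed by 16205 of the positions (40.6 %). There were 1863 runs, with a median of 7 positions (range 5 to 56) at 6 CpGs and a median length of 119 bp (range 11 to 883 bp). Over the run means, the median was 38.8 % in wt MEFs and 6.29 % in βerko MEFs, with a median drop of 32.1 points. At least 10 positions were found in 490 runs, at least 20 in 87, at least 30 in 23 and at least 40 in 11. Positions in runs had slightly larger drops than those outside runs, with medians of 31.3 and 28.6 points. Their neighbours differed more, with median drops of 21.6 points in runs and 8.83 points outside, although neighbours in a run include positions chosen by the same rule. Under the same definition, hypomethylated DMPs formed 179 runs with 25.2 % of their positions, positions partly methylated in both formed 1328 with 17.5 %, and positions that rose from unmethylated to partly methylated formed 271 with 11.2 %. Of positions that rose from partly to fully methylated, 1.62 % were in 123 runs. These shares also depend on how many covered positions lie nearby. The median number of covered positions of other CpGs within 100 bp was 8 for partly-to-unmethylated positions and 6 for hypomethylated DMPs. It was 3, 4 and 2 for the other classes in the order named. The part of this in the shares was not tested.

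Most runs were mixed. Only 168 (9.02 %) held no other covered position, and 14783 other positions lay inside the runs. Of these, 54.6 % were unmethylated in both cell types, 24.4 % were partly methylated in both and 5.57 % were hypomethylated DMPs. The 8067 positions in runs that were unmethylated in both had medians of 8.7 % in wt and 2.02 % in βerko MEFs and were higher in wt for 70.1 %. Elsewhere, 387584 positions were unmethylated in both, with medians of 0 % in each cell type, and 22.4 % were higher in wt MEFs. A position at 0 % in wt MEFs cannot be higher there, which limits the share elsewhere and its comparison with the runs. In the runs themselves, many positions between those chosen were lower in βerko MEFs as well, but had too little methylation in wt MEFs to be chosen. Outside the runs the drop did not fall steadily with distance. A run ends only where no further partly-to-unmethylated position lies within 100 bp. Covered positions up to 100 bp beyond an end were thus never of this class, while those farther away could be. The lower drops up to 100 bp therefore follow in part from the definition. In the first 50 bp, covered positions had means of 28.0 % in wt and 17.6 % in βerko MEFs, a mean drop of 10.4 points. The mean drop was 7.38 points from 51 to 100 bp, 12.8 points up to 250 bp, 10.2 points up to 500 bp and 7.04 points up to 1000 bp.

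The largest run lay in the last part of Otud7a, a gene for a deubiquitinating enzyme, at chr7:70902971-70903510 in exon sequence. Its 56 positions at 48 CpGs ranged from 20 to 80 % in wt MEFs, with a mean of 49.4 %, and from 0 to 13.95 % in βerko MEFs, with a mean of 3.17 %. Inside the run lay 33 other covered positions, of which 11 were hypomethylated DMPs, and the median coverage there was 6 reads in wt MEFs and 28 in βerko MEFs. The run with 55 positions at Fam19a5, which encodes a small secreted protein, was different. It lay in the promoter of a shorter transcript of the gene at chr15:87454877-87455309, had means of 36.5 % in wt and 3.68 % in βerko MEFs, did not exceed 55.3 % in wt MEFs and had no hypomethylated DMP inside or within 100 bp.

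Of the other 8 runs among the 10 largest, 5 lay at genes for transcription factors. Gata6, a zinc finger transcription factor of endoderm and heart, had 47 positions with means of 66.6 % in wt and 3.23 % in βerko MEFs, together with 23 hypomethylated DMPs inside the run. At Tbx1, a T-box factor of the pharyngeal region, 46 positions had means of 50.2 and 5.95 %. At Six2, a homeobox factor of kidney progenitors, the 45 positions had means of 49.2 and 1.10 %. Mycn, a proto-oncogene of the Myc family, had 44 positions over 731 bp with means of 43.6 and 7.93 %. At Foxc2, a forkhead factor of mesenchyme and lymphatic vessels, the 41 positions had means of 32.7 and 0.320 %, and none of them exceeded 3.66 % in βerko MEFs. All 15 other positions covered in the Foxc2 run were unmethylated in both cell types.

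Runs among the 10 largest also lay in promoters of genes with other functions. Atp9a, which encodes a membrane ATPase of the flippase family, had 45 positions with means of 40.6 % in wt and 3.85 % in βerko MEFs. Kazn, which encodes the junction protein kazrin, had 43 positions with means of 41.5 and 4.88 %. Among the 10 runs, the lowest mean in wt MEFs was that of Foxc2 and the highest that of Gata6. The means in βerko MEFs lay between 0.320 and 7.93 %.

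**Figure D2:**
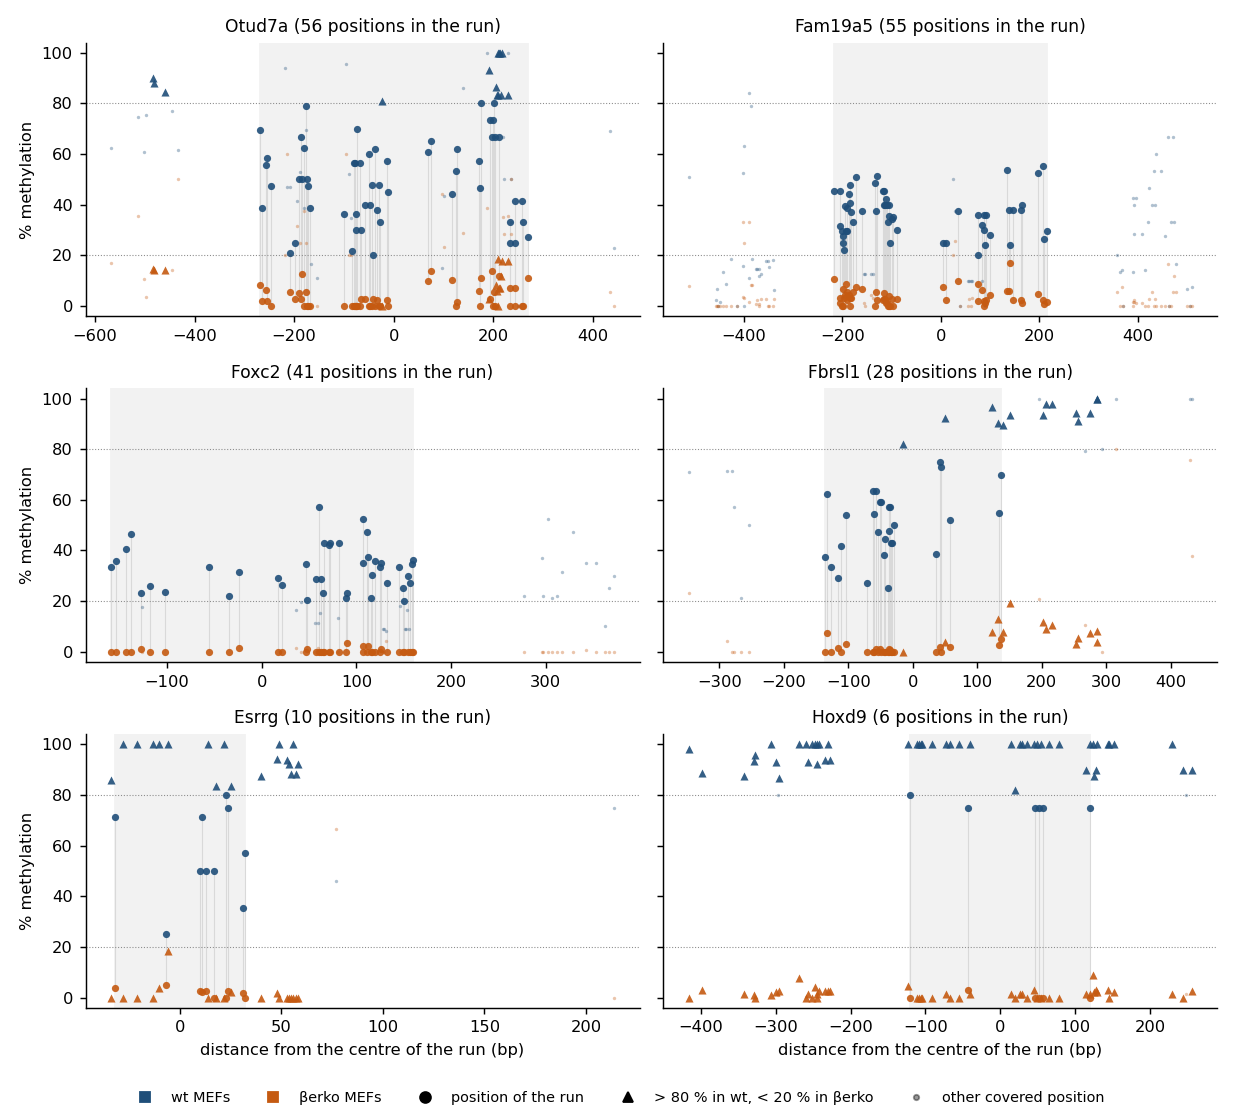
% methylation of each covered position in wt and βerko MEFs against the distance in bp from the centre of the run, for 6 runs. Circles are positions of the run (grey area), triangles are hypomethylated DMPs, and small points are other covered positions. For positions of the runs at Fam19a5 and Foxc2, the levels in wt MEFs stay below 60 %, while at Esrrg and Hoxd9 the positions of the run lie among hypomethylated DMPs.

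Hypomethylated DMPs lay within 100 bp of 6249 of the partly-to-unmethylated positions (15.6 %), on both sides for 1045. This was so for 5.49 % of the positions partly methylated in both cell types, for 0.929 % of those that went from partly to fully methylated and for 2.73 % of all covered positions. These 4 sets also differed in covered positions of other CpGs within 100 bp, with medians of 8, 3, 2 and 6. The part of this in the shares was not tested. For partly-to-unmethylated positions in runs the share was 24.1 %, and outside runs it was 9.86 %. Positions next to a hypomethylated DMP had more methylation in wt MEFs, with a median of 50 % against 34.3 % for the others, and a larger drop, with medians of 42.4 and 28.2 points. Seen from the other class, 3433 of the 6016 hypomethylated DMPs (57.1 %) lay within 100 bp of a partly-to-unmethylated position. Their median coverage was 18 reads in wt MEFs (range 4 to 208) and 47 in βerko MEFs (4 to 158), and the other hypomethylated DMPs had medians of 23 and 43 reads.

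The level in wt MEFs changed with the distance to the nearest hypomethylated DMP. At a distance of 1 bp, 250 positions had a median of 66.7 % in wt MEFs. For 243 of them the DMP was on the other strand of the same CpG. The median was 53.9 % at 2 to 25 bp, 42.1 % at 51 to 100 bp and 33.3 % beyond 1000 bp. The median in βerko MEFs stayed between 4.49 and 6.98 % at all distances. Of all positions partly methylated in wt MEFs, 77.6 % became unmethylated at a distance of 1 bp (72.8 to 81.8 %) and 64.6 % at 2 to 25 bp (63.2 to 66.0 %). From 26 to 500 bp the share was between 55.7 and 60.5 %, and beyond 1000 bp it was 22.5 % (22.3 to 22.8 %). Still, 27294 of the partly-to-unmethylated positions (68.3 %) were more than 1000 bp from any hypomethylated DMP.

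**Figure D3:**
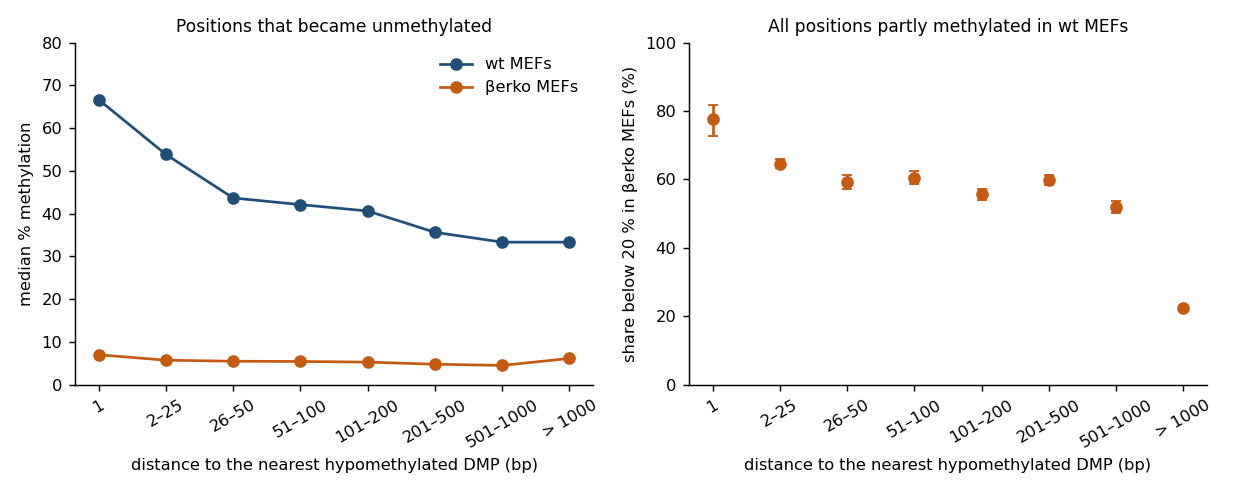
Left, median % methylation of the partly-to-unmethylated positions in wt and βerko MEFs by the distance in bp to the nearest hypomethylated DMP. Right, the share (%) of all positions partly methylated in wt MEFs that were below 20 % in βerko MEFs, with 95 % Wilson intervals. The median in wt MEFs falls from 66.7 % at 1 bp to 33.3 % beyond 1000 bp, and the share falls from 77.6 to 22.5 %.

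Of the runs, 483 (25.9 %) held or adjoined a hypomethylated DMP. It lay inside 371 runs and only outside in 112. A hypomethylated DMP within 100 bp beyond the end was found on 1 side of 196 runs and on both sides of 20. In contrast, positions that were unmethylated in both cell types lay inside or next to 84.6 % of the runs. Both kinds were found at 348 runs (18.7 %).

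The most hypomethylated DMPs lay in and around a run at Hoxd9, a homeobox gene of the body axis, at chr2:74536176-74536417. Only 6 positions formed this run, with 80 % at the first and 75 % at each of the others in wt MEFs and a mean of 0.470 % in βerko MEFs. They stood among 29 hypomethylated DMPs, which had means of 98.3 % in wt and 1.33 % in βerko MEFs. Coverage of these DMPs was low in wt MEFs, at a median of 5 reads, and 67 in βerko MEFs. With 4 reads, a single read stands for 25 percentage points, and whether the 6 positions differed in level from the DMPs around them was not tested. The Esrrg run also lay among hypomethylated DMPs, but its levels in wt MEFs varied more widely and were mostly lower. Its positions in wt MEFs read, in order, 71.4, 25, 50, 71.4, 50, 50, 80, 75, 35.3 and 57.1 %, and in βerko MEFs none exceeded 4.88 %. The 19 hypomethylated DMPs there were covered by a median of 7 wt reads and 27 βerko reads. Further runs with many hypomethylated DMPs were those of Gata6 with 24, the homeobox gene Nkx6-2 with 20, and the genes Runx3 and Fam59b with 18 each. At Gata6 the median coverage of the DMPs was 18 reads in wt MEFs, and at Runx3 it was 9.

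Partly-to-unmethylated positions in runs lay in CpG-rich sequence, while those outside runs were near all covered positions in this respect. A window of 200 bp around them held a median of 22 CpGs in runs, 12 outside runs and 16 for both together. The median was 13 for all covered positions and 6 for the other positions partly methylated in wt MEFs. The window met a CpG island criterion (at least 50 % G and C and a ratio of observed to expected CpGs of 0.6) at 70.4 % of the positions and in 92.2 % of the runs. The criterion was met at 55.1 % of the positions outside runs. It was met at 57.2 % of all covered positions and at 27.4 % of the other positions partly methylated in wt MEFs. The positions that were unmethylated in both cell types reached 90.01 %. Within 1 kb of a transcription start lay 62.2 % of the positions, and 55.7 % of those outside runs. The share was 54.2 % for all covered and 22.7 % for the other partly methylated positions.

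Promoters, from 500 bp before to 100 bp after a transcription start, held 11604 of the positions (29.0 %, 28.6 to 29.5 %). The share was 29.7 % for all covered positions, 9.94 % for the other positions partly methylated in wt MEFs and 19.12 % for hypomethylated DMPs. Exons outside promoters held 27.7 % of the positions and 21.2 % of all covered positions. Introns held 23.8 %, and 19.4 % lay between genes, where 41.1 % of the other partly methylated positions were found. When 1 position was taken per group with gaps of up to 500 bp, promoters held 21.8 % of the partly-to-unmethylated positions, 16.5 % of the hypomethylated DMPs and 6.19 % of the other partly methylated positions. The share of all covered positions was then 8.21 %. Taking 1 position per group left 12331 of the 39959 partly-to-unmethylated positions and 127008 of the 826937 covered positions. The covered positions were thus reduced more strongly. The part of this in the change from 29.0 and 29.7 % to 21.8 and 8.21 % was not tested. Of the runs, 765 (41.1 %) were in promoters, 587 in other exons, 274 in introns and 237 between genes, and their median distance to a transcription start was 309 bp.

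**Figure D4:**
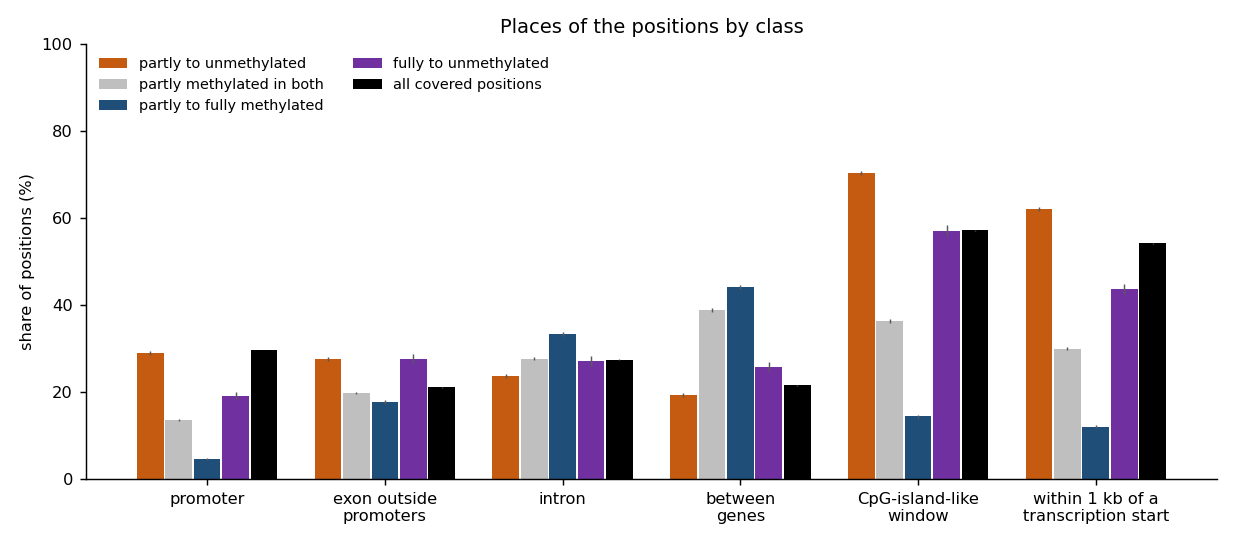
Share (%) of positions in promoters, exons outside promoters, introns, between genes, in windows meeting the CpG island criterion and within 1 kb of a transcription start, for 4 classes of position and all covered positions. Thin lines are 95 % Wilson intervals. Partly-to-unmethylated positions meet the island criterion at 70.4 %, and the other positions partly methylated in wt MEFs lie more often between genes.

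The oestrogen response element, the sequence GGTCANNNTGACC searched on both strands within 100 bp, was found at 16 of the positions (0.040 %) and at 170 of all covered positions (0.0206 %). With up to 1 mismatch it was found at 0.571 % of the positions and 0.634 % of all. None of the 6249 positions next to a hypomethylated DMP had the exact sequence, and with up to 1 mismatch 26 of them did. Neighbouring positions share such matches.

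The positions were spread over the chromosomes. The share of partly methylated positions that became unmethylated ranged on the autosomes from 25.2 % on chromosome 10 to 31.9 % on chromosome 11. On chromosome X, 628 of 2849 such positions (22.04 %) became unmethylated. Promoters of chromosome X had means of 14.9 % in wt and 12.4 % in βerko MEFs, and autosomal promoters had lower means of 10.9 and 8.46 %.

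Of 21967 genes with a covered position in the gene or in the 2 kb before it, 7351 (33.5 %) had at least 1 partly-to-unmethylated position and 2513 (11.4 %) had at least 5. Among the 12272 genes with at least 20 covered positions, 48.0 % had at least 1 and 19.4 % at least 5. Genes for developmental transcription factors other than Hox had such positions more often, with 156 of 166 genes (94.0 %) having at least 1 and 116 (69.9 %) at least 5. Of those with at least 20 covered positions, 115 of 158 (72.8 %) had at least 5. In this list, 16.4 % of the covered positions were partly methylated in wt and unmethylated in βerko MEFs. Averaged over all covered positions, methylation was higher in wt than in βerko MEFs at 141 of the 166 genes (84.9 %), compared with 58.2 % of all covered genes and 67 % of those with at least 20 covered positions. It was higher in wt MEFs by at least 20 points at 21 of the 166 (12.7 %), compared with 4.56 % of all covered genes and 2.97 % of those with at least 20 covered positions, and in βerko MEFs by at least 20 points at 1 (0.602 %), compared with 2.73 %.

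Among these factors, Prdm16, a zinc finger regulator of brown fat, had the most positions, with 92 of 409 covered, and they averaged 51.2 % in wt and 3.49 % in βerko MEFs. The B cell factor Pax5 had 74 positions, which averaged 40.4 and 7.44 %. At Nkx6-1, a homeobox factor of neurons and beta cells, 72 of 144 covered positions were of this kind and averaged 42.1 and 4.93 %. Tbx1 had 67 of 200, and Gata6 had 65 of 151. At Tbx3, a T-box factor of limb and heart, 60 of 103 covered positions (58.3 %) belonged to the class, and all covered positions of the gene averaged 64.2 % in wt and 11.7 % in βerko MEFs. Gata4, a relative of Gata6, had 56 of 198.

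Hox genes, which specify position along the body axis, had at least 1 such position at 31 of 39 genes and at least 5 at 23. These shares were 79.5 and 59.0 %, beside 33.5 and 11.4 % of all covered genes. Of the 37 with at least 20 covered positions, 22 (59.5 %) had at least 5. Among all such genes, 48.0 % had at least 1 and 19.4 % at least 5. Averaged over all covered positions, 24 of the 39 (61.5 %) were higher in wt MEFs. This was so for 58.2 % of all covered genes and 67 % of those with at least 20 covered positions. By at least 20 points, 5 (12.8 %) were higher in wt MEFs, beside 4.56 %, and 4 (10.3 %) in βerko MEFs, beside 2.73 %. The clusters had unequal numbers. In genes of Hoxb, 115 of 568 covered positions (20.2 %) were partly methylated in wt and unmethylated in βerko MEFs, in Hoxc 81 of 445 (18.2 %), in Hoxd 85 of 664 (12.8 %) and in Hoxa 52 of 820 (6.34 %). Hypomethylated DMPs had another distribution, with 90 in Hoxa, 75 in Hoxd, 3 in Hoxb and 2 in Hoxc. Hoxa was also the cluster with the most positions that rose from unmethylated to partly methylated, with 143. At Hoxd10, 27 of 53 covered positions averaged 27.3 % in wt and 0.242 % in βerko MEFs. At Hoxb7, 27 of 95 positions averaged 41.9 and 7.77 %, and Hoxa3 had 28 of 257. Neighbouring Hox genes overlap in their 2 kb upstream parts and annotated transcripts, so some positions count for more than 1 gene.

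Imprinted genes had at least 1 position at 34 of 49 genes and at least 5 at 20. These shares were 69.4 and 40.8 %, beside 33.5 and 11.4 % of all covered genes. Of the 35 with at least 20 covered positions, 18 (51.4 %) had at least 5. Among all such genes, 48.0 % had at least 1 and 19.4 % at least 5. At Peg12, which is expressed from the paternal allele, 44 of 77 covered positions averaged 29.4 % in wt and 4.06 % in βerko MEFs, and 41 of them were in runs. Grb10, an imprinted adaptor of growth factor receptors, had 27 of 148 positions, averaging 47.0 and 10.0 %. Commd1 and Zdbf2 had 20 each. Averaged over all covered positions, 34 of the 49 imprinted genes (69.4 %) were higher in wt MEFs. The share was 58.2 % for all covered genes. It was 67 % for genes with at least 20 covered positions, which 35 of the 49 had, so the imprinted genes were near it. By at least 20 points, 6 (12.2 %) were higher in wt MEFs, beside 4.56 % of all covered genes and 2.97 % of those with at least 20 covered positions. In βerko MEFs, 1 (2.04 %) was higher by at least 20 points, beside 2.73 %.

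Germline genes, which are mostly methylated in somatic cells, had at least 1 position at 5 of 34 genes and at least 5 at 2. These shares were 14.7 and 5.88 %, below the 33.5 and 11.4 % of all covered genes. Only 14 of the 34 had at least 20 covered positions. Over the whole list, 4.67 % of the covered positions were in the class, near the 4.83 % of all positions, but most of these lay in Dazl and Boll. Of the 35 positions in this list, Dazl, which encodes an RNA-binding protein of germ cells, had 20. They averaged 39.9 % in wt and 7.85 % in βerko MEFs, and Boll had another 10. Averaged over all covered positions, 15 of the 34 (44.1 %) were higher in wt MEFs, beside 58.2 % of all covered genes. Genes of DNA methylation and demethylation had at least 1 position at 7 of 21 (33.3 %), close to the share of all genes. Of their covered positions, however, 2.43 % were in the class, below the 4.83 % of all positions. Of the 15 with at least 20 covered positions, 2 (13.3 %) had at least 5, beside 19.4 % of all such genes. Tet1, the dioxygenase that oxidises 5-methylcytosine, had 12 positions of 58, and Dnmt3a and Dnmt1 had 6 and 2. In the oestrogen receptor family and the genes followed up in the study, 14 of 18 genes had at least 1 position and 9 had at least 5. All 18 had at least 20 covered positions, and of all such genes 48.0 % had at least 1 and 19.4 % at least 5. Of the 1742 covered positions in this list, however, 93 (5.34 %) were in the class, near the 4.83 % of all positions. These genes were picked by the study on the same libraries, so their count is not independent. Esr1, the gene of oestrogen receptor α, had 10 positions of 62, averaging 63.3 % in wt and 9.34 % in βerko MEFs, and 7 of them formed a run. The 15 positions of Esrrg averaged 55.6 and 3.58 %.

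**Figure D5:**
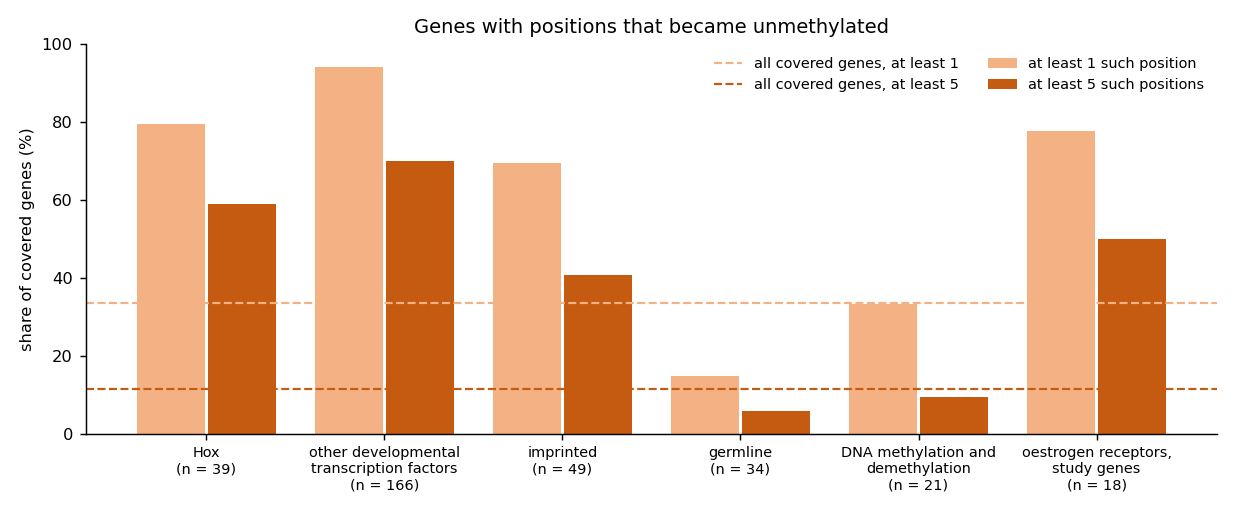
Share (%) of covered genes in each of 6 lists with at least 1 and with at least 5 partly-to-unmethylated positions. The dashed lines are the shares of all covered genes, 33.5 and 11.4 %. Both shares are highest for developmental transcription factors other than Hox, at 94.0 and 69.9 %, and the DNA methylation list lies near both lines at 33.3 and 9.52 %.

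Genes outside these lists also held many of the positions. Fam19a5 had 113 of 320 covered, 102 of them in runs, and Otud7a had 88 of 233. Foxo6, a forkhead factor of the insulin pathway, had 62 of 231, and Zmiz1, a transcriptional coactivator, had 61 of 364, where the positions averaged 42.2 % in wt and 1.26 % in βerko MEFs. Bai1, an adhesion receptor, had 62, Insm2, a zinc finger factor, 57, and Shisa6, an auxiliary protein of glutamate receptors, had 56 of 122, all in runs. The gene model Gm5607 had 85 of 214. Doc2b, a calcium sensor of secretion, and the overlapping model Gm12339 shared 56 positions, and Gm13111 with 66 positions lies next to Prdm16. Counts were high for Gm20388 with 254 and Fgfr2 with 73 because these gene models are very long and hold 6495 and 1604 covered positions, of which 3.91 and 4.55 % were in the class.

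Of the 12272 genes with at least 20 covered positions, 50 had at least 50 % of them in the class. At Atg9b, an autophagy gene, 25 of 30 covered positions were partly methylated in wt and unmethylated in βerko MEFs, all of them in runs, and they averaged 49.5 and 2.03 %. The overlapping genes D630036H23Rik and Ispd shared 30 positions, which averaged 59.8 % in wt and 2.48 % in βerko MEFs. At the protein kinase gene Stk33 and the overlapping 1700095J03Rik, 20 of 31 positions averaged 48.1 and 2.90 %. These genes were singled out after their values were seen.

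Promoters of markers were examined to see how the cell types labelled as fibroblasts appeared. Those of the fibroblast genes Col1a1, Pdgfrb, Fn1 and Twist1 were at or below 0.6 % in both libraries. Exceptions were Col1a2 with 93.6 % in wt and 48.3 % in βerko MEFs and Vim with 64.2 and 58.5 %. The epithelial gene Cdh1 had means of 23.7 and 13.5 % over 36 positions, 11 of which belonged to the partly-to-unmethylated class. Across 5 epithelial genes the promoter means ranged from 23.7 to 91.7 % in wt and from 13.5 to 75 % in βerko MEFs, and those of the pluripotency genes Pou5f1, Zfp42 and Utf1 had 83.1, 92.4 and 61.2 % in wt and 65.7, 63.0 and 36.8 % in βerko MEFs. The blood gene Itgam had 41.8 and 88.8 % at 2 positions. Promoter methylation does not measure expression, and whether the mixture of cells differed between the libraries was not tested.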

How the data were processed

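MspI fragments of DNA from wt and βerko MEFs were sequenced after bisulfite treatment, with 1 library per cell type and 3 batches pooled in each. Reads were mapped with the Genomatix Mining Station (version not stated), and the submitters' processing notes name CASAVA 1.4. For cytosines read in both libraries the authors deposited percent methylation but no coverage. They also deposited tables of DMPs with whole read counts per position and library, which gave the depth (4 reads or more) at hypomethylated DMPs only. Depth at the positions described here is unknown, and no counts were inferred from percentages. The table of hypermethylated DMPs and the columns with the authors' own methylation classes were not used.

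Positions were compared with the build NCBIM37, where each of the 826937 was a CpG cytosine, and placed on GENCODE vM1 gene models. Runs, neighbours within 100 bp and distances were computed with pandas 2.3.3, NumPy 2.4.6 and SciPy 1.17.1 under Python 3.11.15, and plots with matplotlib 3.10.9. Shares have Wilson intervals at 95 %. No test was made, since there was 1 library per group and the values chose the positions. The search for runs and neighbours was tested on simulated data. The positions and the gene lists were chosen with earlier results of these data known. Named were the 10 largest runs, the 20 genes with the most positions, up to 4 genes per list and runs for sequences, of which 1 candidate in an untranslated region was passed over, and none was taken from chromosome 18. Some results that these rules select are not reported here. The runs with the most hypomethylated DMPs and the genes with the highest shares were added. Repeats were not analysed here.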

Additional observations from a re-analysis of the deposited data

How the results depend on the processing

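The drop kept its direction under all alternatives by construction. Of 33 values under alternatives, 21 stayed within 1.5 times the main count or, for the median drop, within its interval, among them those with strands merged, without chromosomes X, Y and M, with gaps of 50 or 200 bp and with neighbours within 50 or 200 bp. With wt levels from 30 to 70 %, 23080 positions were chosen instead of 39959. With a limit of 10 % in βerko MEFs, the median drop was 30.9 points, and there were 1142 runs with 9428 positions instead of 1863 with 16205. With at least 3 positions there were 4149 runs, with at least 10 there were 490 with 7496 positions, and without any other covered position in between there were 697 with 4635. These follow from the stricter or looser definitions. Promoters from 1000 bp before to 500 bp after a start held 21187 positions instead of 11604. With 1 position per group within 500 bp, 2688 were in promoters, and 3483 instead of 17048 were in any exon. When hypomethylated DMPs needed more than 4 reads, 6048 positions adjoined one instead of 6249. Read depth at the positions themselves is unknown, and its part in the choice of positions was not tested. No paired analysis was possible because each group had 1 library and no test was made.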
